A study of Mus musculus with 8 samples.

Results

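Matrix metalloproteinases, ADAMTS and ADAMTS-like proteins and their tissue inhibitors, the TIMPs, were followed in whisker follicles of mice given the compound E7386 or vehicle. The members are the genes whose RefSeq symbol begins with Mmp, Adamts, Adamtsl or Timp followed by a digit. The array holds 20887 genes with a symbol, and 37018 when probes without a symbol are counted as genes under their systematic names. Among those with a symbol, 49 members on 64 probes were found. They comprise 22 Mmp, 19 Adamts, 4 Adamtsl and 4 Timp genes. All mice of both groups were female ApcMin/+ animals, that is, heterozygous for a truncating mutation of Apc, whose product helps to keep beta-catenin low. E7386 is known as a compound that disturbs the partnership of beta-catenin with CBP, a coactivator. Treated mice received it orally at 30 mg/kg, 2 times a day, in 4 cycles of 5 days with and 2 days without the compound, beginning when they were 8 weeks old. Whisker follicles were taken 6 h after dosing ended, and no separate schedule is given for the vehicle. There were 4 samples of each group, hybridised to 1-colour arrays. Nothing in the labels ties a sample to a mouse of its own, so the p-values rest on a spread among samples that may be technical.

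Metalloproteinases of these families cut the proteins of the extracellular matrix and are made as inactive precursors. MMPs cut collagens, gelatin, laminins and many other substrates, while ADAMTS enzymes cut large proteoglycans such as versican and aggrecan or trim procollagens. ADAMTS-like proteins share the matrix-binding domains of ADAMTS enzymes but have no protease domain. TIMPs bind the active site of these enzymes, and TIMP3 also inhibits several ADAMTS enzymes. In a hair follicle the matrix is remodelled around the growing bulb, in the dermal sheath and in the papilla.

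The windows of 250 bases before the gene starts are shown for the member that passed the test, Adamtsl2, for Adamts1, and for the 3 detected genes of the Mmp cluster on chromosome 9, because the same motif recurs in that cluster. Capitals mark the AP-1 motif TGANTCA, searched on both strands, and the TATA box motif TATAAA, searched on the gene's strand. The sequences are from RefSeq on GRCm38.p6 and run 5′ to 3′ on the gene's strand.
Adamtsl2, chr2:27079129-27079378 (plus strand): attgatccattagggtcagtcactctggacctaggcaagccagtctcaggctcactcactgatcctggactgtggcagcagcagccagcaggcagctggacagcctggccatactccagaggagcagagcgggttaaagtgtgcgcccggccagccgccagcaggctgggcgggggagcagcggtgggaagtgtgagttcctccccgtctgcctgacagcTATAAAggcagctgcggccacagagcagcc
Adamts1, chr16:85803114-85803363 (minus strand): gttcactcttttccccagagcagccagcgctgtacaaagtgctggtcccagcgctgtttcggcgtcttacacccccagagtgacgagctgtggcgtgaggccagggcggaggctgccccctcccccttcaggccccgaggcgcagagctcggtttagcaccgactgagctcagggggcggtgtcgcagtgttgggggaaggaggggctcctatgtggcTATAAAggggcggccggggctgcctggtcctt
Mmp3, chr9:7445572-7445821 (plus strand): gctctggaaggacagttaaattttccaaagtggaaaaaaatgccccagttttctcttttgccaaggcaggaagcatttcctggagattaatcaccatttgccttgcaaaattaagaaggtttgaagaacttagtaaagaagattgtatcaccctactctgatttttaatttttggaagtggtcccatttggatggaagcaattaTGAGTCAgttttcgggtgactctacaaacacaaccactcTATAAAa
Mmp12, chr9:7347124-7347373 (plus strand): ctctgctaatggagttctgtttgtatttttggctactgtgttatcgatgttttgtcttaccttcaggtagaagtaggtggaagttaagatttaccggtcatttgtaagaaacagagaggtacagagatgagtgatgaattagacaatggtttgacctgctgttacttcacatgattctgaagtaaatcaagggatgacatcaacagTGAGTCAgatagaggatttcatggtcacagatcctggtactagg
Mmp13, chr9:7272264-7272513 (plus strand): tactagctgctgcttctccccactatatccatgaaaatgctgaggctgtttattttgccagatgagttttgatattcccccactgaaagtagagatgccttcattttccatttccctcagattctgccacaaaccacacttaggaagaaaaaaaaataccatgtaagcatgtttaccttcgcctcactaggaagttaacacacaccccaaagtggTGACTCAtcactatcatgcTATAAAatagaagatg

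The table of windows held 34 of the 49 members, in 37 windows. TGANTCA was found in 8 of these 37 windows (21.6%) and in 6.75% of all 32851 windows. Its 8 genes are Mmp1a, Mmp1b, Mmp3, Mmp7, Mmp10, Mmp12, Mmp13 and Mmp20. They lie next to each other on chromosome 9 together with Mmp8, whose window holds no such match. Mmp7 and Mmp12 each have another window, which holds no such match either. In Mmp3 the match begins 46 bases before the start, in Mmp12 (the later of its 2 starts) 44 bases before it, and in Mmp13 35 bases before it. TATAAA was found in 10 member windows (27.0%, against 7.59% of all windows). These are 7 windows of the same cluster and those of Mmp21, Adamts1 and Adamtsl2. TATAAA begins 32 bases before the start of Adamts1 and 30 before that of Adamtsl2, but 7 before that of Mmp3 and 16 before that of Mmp13. The letters CTTTGA, part of the site bound by TCF and LEF factors, were searched on both strands and found in 4 member windows (10.8%, against 13.8% of all windows). Neighbouring Mmp genes are copies of one another, so these matches are not independent.

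Signals are log2 of the background-corrected intensity minus the 75th percentile of the array, so that 0 is the level of a fairly bright probe, and each gene is read on its brightest probe. Levels are not set against each other between genes, since probes differ in brightness. Of the 49 members, 28 (57.1%) were well above background on all 8 arrays, 11 on 1 to 7 arrays and 10 (20.4%) on no array, while 73.0% of all genes with a symbol were so on all arrays and 17.0% on none. Of 10 Mmp genes in a row on chromosome 9, 9 have a named probe, and 6 of these (Mmp1a, Mmp1b, Mmp7, Mmp8, Mmp10 and Mmp20) were on no array. The other members on no array were Mmp16, Mmp21, Adamts16 and Adamts20. Mmp9, a gelatinase of neutrophils and other cells, was well above background on 1 array, E7386 replicate 1, so that of the 2 gelatinases Mmp2 alone could be compared between the groups. Of the 3 classical aggrecan- and versican-cleaving enzymes Adamts1, Adamts4 and Adamts5, each was detected on all 8 arrays.

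**Figure D1:**
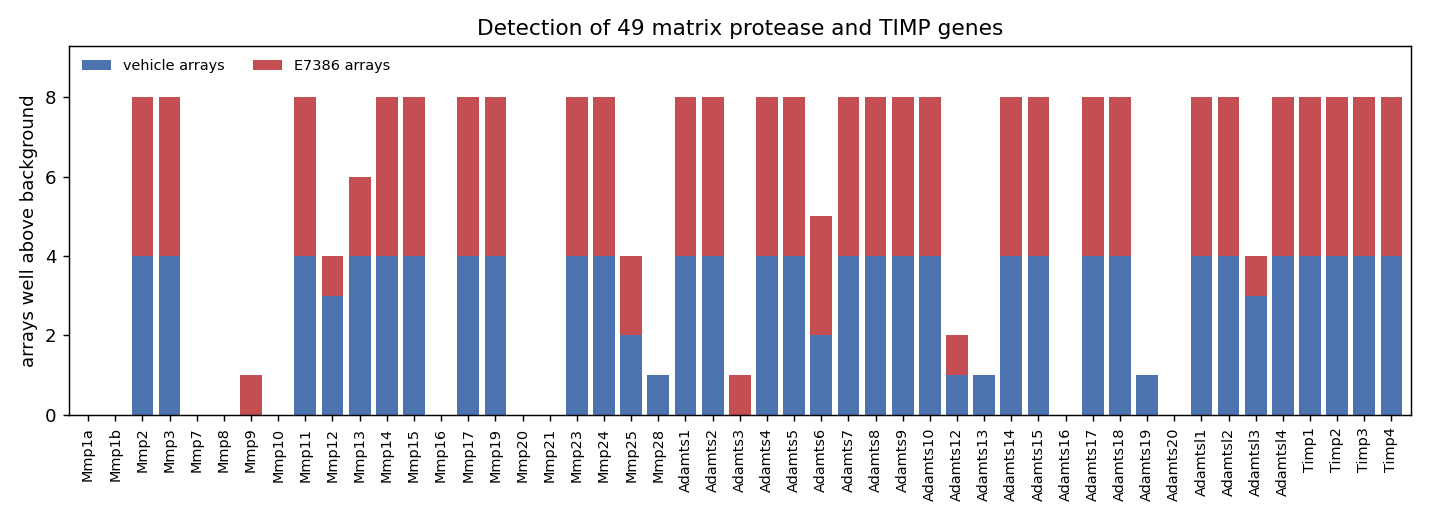
Number of arrays (y axis, of 8) on which the brightest probe of each of the 49 members (x axis, by family and number) was well above background, with the vehicle arrays in blue and the E7386 arrays in red. All 4 Timp genes reach 8 arrays, and Mmp1a, Mmp1b, Mmp7, Mmp8, Mmp10 and Mmp20 have no bar.

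E7386 was followed by a rise in 1 member, Adamtsl2, and by a fall in 0 members, among the 32 members tested, those detected above background on 3 or 4 arrays of either group (limma, Benjamini-Hochberg adjusted p under 0.05 over all 25353 genes tested). Of the genes tested, 16133 have a symbol, and the others are counted under the systematic names of their probes. Over all genes tested, 0.753% were called higher, 0.367% lower and 1.12% in either direction, so 1 of 32 is near this background. At an unadjusted p under 0.05 there were 6 members higher and 3 lower, against 7.47% and 7.7% of all genes. The means of 19 members were higher with E7386 and those of 13 lower, with a median log2 change of 0.06, while 52% of all genes tested had higher and 48% lower means, and the median of all was 0.0088. Scaling each array by its median turned this split to 15 higher and 17 lower and the median to -0.02. All genes shifted too, with 36.1% having higher means and a median of -0.07 under that scaling. That scaling also turned the share of rises among all called genes from 67.3% of 284 to 52.3% of 258. Members that were tested passed a filter that a high level in 1 group satisfies, and 28 of the 32 were well above background on every array.

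**Figure D2:**
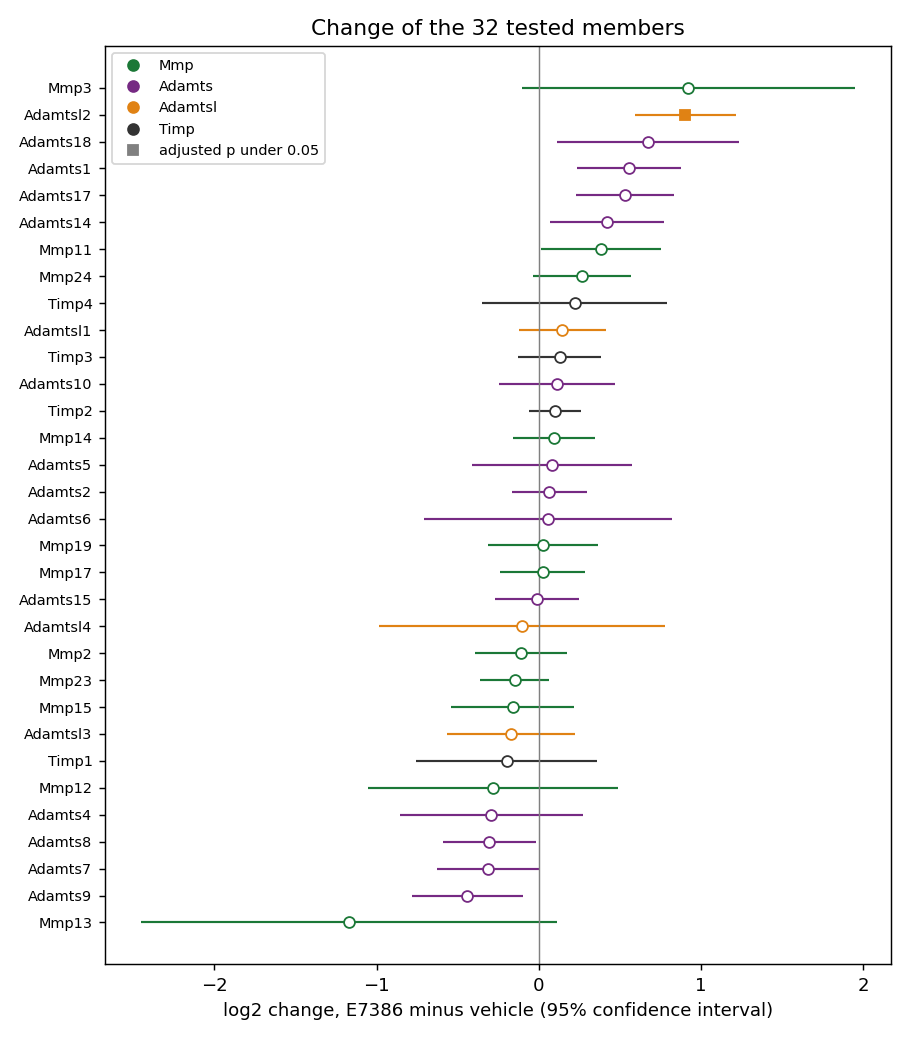
Log2 change of each of the 32 tested members, E7386 minus vehicle (x axis), with its 95% confidence interval from limma (n = 4 per group), members on the y axis in order of change and coloured by family. Adamtsl2 is the filled square, at 0.90, and the interval of Mmp13, from -2.45 to 0.11, is the widest.

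Adamtsl2 encodes a secreted protein without protease activity that binds fibrillin-1 and latent TGF-beta binding protein and whose loss causes geleophysic dysplasia. On vehicle arrays 1 to 4 its normalised log2 signal was -3.04, -3.44, -3.40 and -3.09, and on E7386 arrays 1 to 4 it was -2.58, -2.36, -2.32 and -2.11. Every E7386 array was above every vehicle array. The vehicle mean was -3.25 ± 0.21 (SD, n = 4) and the E7386 mean -2.34 ± 0.20, a rise of 0.90 (SE 0.14, 95% interval 0.59 to 1.21) or 1.87-fold, with an adjusted p = 0.025. All 8 arrays were well above background for this probe, although it is dim. The detection floor of an array, meaning its dimmest detected probe, was at -5.60 to -5.29 with vehicle and at -5.13 to -5.02 with E7386, also without overlap, and its part in the result was not tested. With normexp on median signals, which shrinks changes of dim probes, the rise was 0.47 (adjusted p = 0.0427).

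The call of Adamtsl2 depended on the arrays used. It was kept without vehicle replicate 1 and without E7386 replicate 1 and lost without each of vehicle replicates 2, 3 and 4 (adjusted p = 0.0703, 0.0833 and 0.0502) and E7386 replicates 2, 3 and 4 (0.0679, 0.0981 and 0.0765). The change itself ran from 0.82 to 0.98 over these 8 fits. It was also lost with dim probes kept in (adjusted p = 0.0544). With the 3 arrays of low muscle signal, described further on, left out, the adjusted p was 0.102.

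The other ADAMTS-like genes gave no call. Adamtsl4, which encodes a fibrillin-binding protein of microfibrils, had the widest spread of this family. It was at 0.02, 0.83, 0.98 and 1.43 on vehicle arrays 1 to 4 and at 0.05, 0.25, 1.26 and 1.28 on E7386 arrays 1 to 4. Vehicle replicate 1 and E7386 replicates 1 and 2 were its 3 lowest arrays, and these are also the 3 arrays with the lowest mean of 12 skeletal muscle markers, at 1.11, 1.39 and 2.16, against 3.42 to 4.28 on the other 5 arrays. All 12 muscle markers were well above background on all arrays, and the group ranges of their mean, 1.11 to 4.19 with vehicle and 1.39 to 4.28 with E7386, overlapped. The mean of 6 pericyte and smooth muscle markers was lowest on the same 3 arrays, at 1.44, 1.53 and 1.53, against 1.89 to 2.14. Within this list Des and Rgs5 were lowest on these arrays, and Acta2, Myh11, Tagln and Notch3 were not. Adamtsl4 was singled out after its values were seen, and the part of either cell type in them was not tested. The change of Adamtsl4 was -0.11 (SE 0.38, 95% interval -0.99 to 0.78), and with the skeletal muscle mean as a covariate it was -0.03 with an SE of 0.10. Adamtsl1 had 0.14 (SE 0.12) and Adamtsl3, well above background on 3 vehicle arrays and 1 E7386 array, -0.17 (SE 0.17).

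Among the proteoglycan-cleaving ADAMTS enzymes, 6 of 7 were tested and 0 were called, and 2 had higher and 4 lower means with E7386. Adamts1, an enzyme that cuts versican and aggrecan and that is induced in several tissues by inflammation and hormones, was at 2.97, 2.86, 2.94 and 3.08 on vehicle arrays 1 to 4. On E7386 arrays 1 to 4 it was at 3.88, 3.45, 3.54 and 3.20. The groups did not overlap, with a gap of 0.12 between the highest vehicle and the lowest E7386 array. The means were 2.96 ± 0.09 (SD, n = 4) and 3.52 ± 0.28, a change of 0.56 (SE 0.14, 95% interval 0.23 to 0.88) that missed the threshold (adjusted p = 0.118) in this fit and, with adjusted p from 0.0787 to 0.308, in each of 21 alternatives.

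Adamts9, which cuts versican and is expressed in many mesenchymal tissues, had a change in the other direction. It was at -0.08, -0.20, -0.10 and -0.37 with vehicle and at -0.23, -0.62, -0.79 and -0.88 with E7386, where replicate 1 lay among the vehicle arrays. The change was -0.44 (SE 0.15, adjusted p = 0.219), and without E7386 replicate 1 it was -0.57 (adjusted p = 0.0741). Adamts8 had -0.31 (SE 0.12, adjusted p = 0.296) on its brightest probe and 0.05 on the other, both well above background on all arrays. Adamts4, one of the aggrecanases, was at -0.29 (SE 0.25, adjusted p = 0.625), and its 2 lowest arrays of all 8 were E7386 replicates 3 and 4, at -3.10 and -3.11. Adamts5 was at 0.08 (SE 0.21), and Adamts15 at -0.01 (SE 0.11). Adamts1 and Adamts9, which cut the same proteoglycan, had unadjusted p of 0.0041 and 0.018 in opposite directions, and neither passed.

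The procollagen N-proteinases, which remove the amino-terminal propeptide of fibrillar collagens, gave no call. Adamts14 was at 2.71, 2.55, 2.33 and 2.81 with vehicle and at 3.36, 2.95, 3.03 and 2.74 with E7386, so that the lowest E7386 array lay below the highest vehicle array. Its change was 0.42 (SE 0.15, adjusted p = 0.252), and the other probe gave 0.39. Adamts2 was nearly level, with means of 4.29 ± 0.03 (SD, n = 4) and 4.35 ± 0.19, a change of 0.06 (95% interval -0.17 to 0.29) that turned to -0.01 with arrays scaled by their median. Its other probe gave 0.03. Adamts3 was well above background on 1 of 8 arrays and was not tested.

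Of the remaining ADAMTS enzymes, Adamts17, which is linked to fibrillin microfibrils and to Weill-Marchesani syndrome, had the smallest unadjusted p. It was at -1.44, -1.77, -1.58 and -1.68 with vehicle and at -0.96, -0.95, -1.02 and -1.44 with E7386. The groups were apart by 0.0020 only, since E7386 replicate 4 lay next to vehicle replicate 1, and they overlapped with arrays scaled by their median, with quantile normalization and in the authors' processed values. The change was 0.53 (SE 0.13, adjusted p = 0.112), and the other probe gave 0.39. Adamts18 was dim, at -4.32 ± 0.47 (SD, n = 4) and -3.65 ± 0.29, a change of 0.67 (SE 0.24, adjusted p = 0.247), or 0.38 with normexp. Adamts7, which cuts cartilage oligomeric matrix protein, had -0.32 (SE 0.14, adjusted p = 0.325). Its groups overlapped, but with median scaling, quantile normalization and the authors' processed values every E7386 array was below every vehicle array. The same held for 6.64% to 8.19% of all genes tested under these scalings. Adamts10 had 0.11 (SE 0.15) and Adamts6 0.06 (SE 0.33).

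All E7386 arrays were above all vehicle arrays in 3 of the 32 tested members, Adamtsl2, Adamts1 and Adamts17, and below them in 0 members. The same held for 4.82% and 5.7% of all genes tested. With arrays scaled by their median, quantile normalised or taken as the authors processed them, Adamts17 left this count, and Adamts7 was the 1 member whose E7386 arrays all lay lower. Under these scalings, in that order, 2.89%, 4.35% and 4.32% of all genes lay wholly higher with E7386. Wholly lower were 8.19%, 6.72% and 6.64%. With normexp, Adamts18 joined the 3 members, and 5.65% of all genes lay wholly higher and 5.07% wholly lower.

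**Figure D3:**
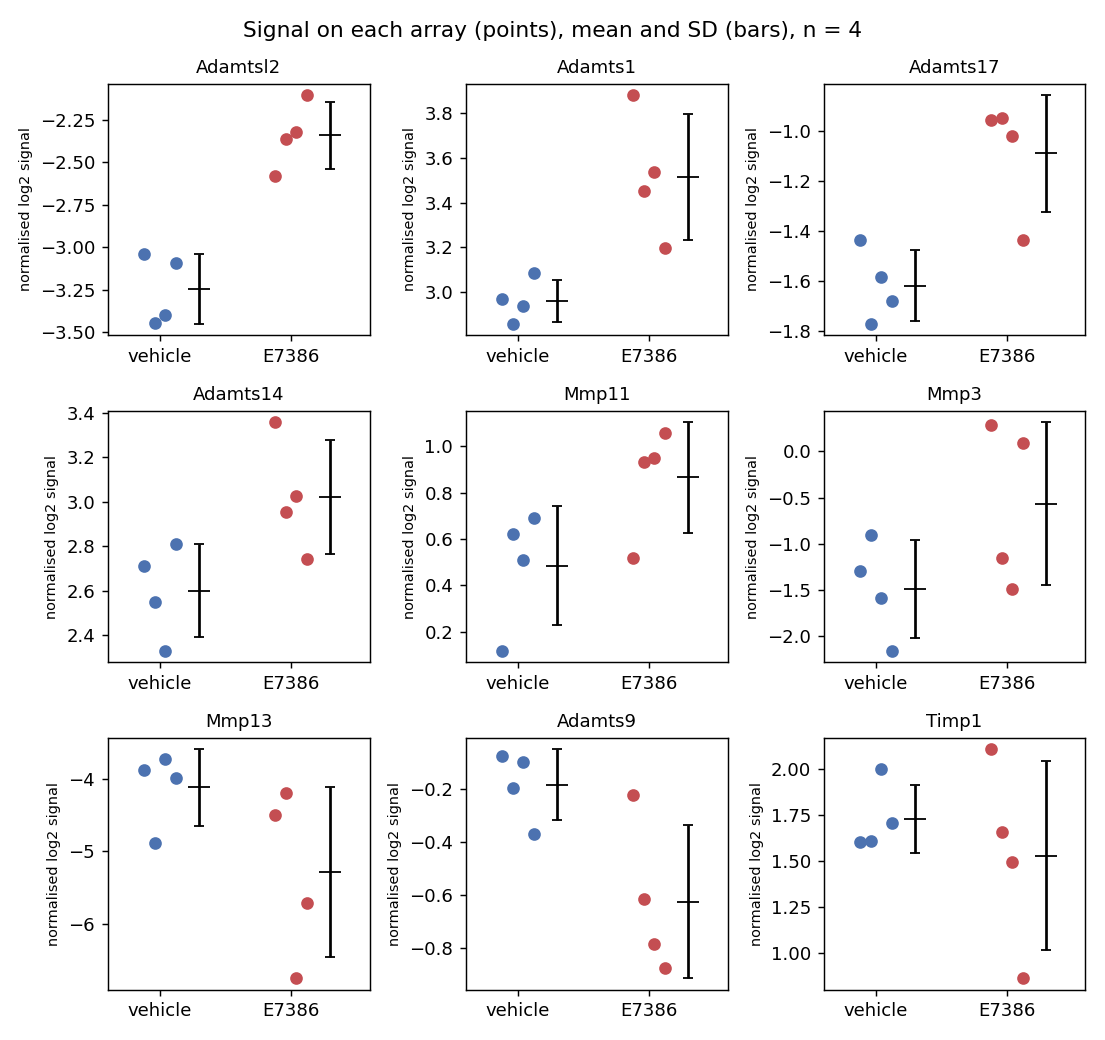
Normalised log2 signal (y axis, scales differ between panels) of 9 members on each of the 4 vehicle (blue) and 4 E7386 (red) arrays, with the group mean and SD beside the points. Adamtsl2 and Adamts1 are apart between the groups, while Mmp3, Mmp13 and Timp1 spread more widely with E7386 than with vehicle. Members not shown, among them Adamts6, Mmp2, Mmp12 and Timp4, spread more widely with vehicle, and spread was not tested.

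Among the MMPs, 11 of 22 were tested, 0 were called (limma), and 1 had an unadjusted p under 0.05 and higher mean. The means of 6 were higher and of 5 lower. This split became 4 higher and 7 lower with arrays scaled by their median, quantile normalised or taken as the authors processed them. Of all genes tested, 36.1%, 46.9% and 46.8% had higher means under these scalings, in that order. The secreted gelatinase Mmp2, which cuts gelatin and type IV collagen, was at 3.43 ± 0.24 (SD, n = 4) with vehicle and 3.32 ± 0.08 with E7386, a change of -0.11 (95% interval -0.39 to 0.17). Its membrane-bound activator Mmp14 was at 0.83 ± 0.18 and 0.92 ± 0.12, a change of 0.09 (95% interval -0.16 to 0.35). The groups overlapped in both genes. The other membrane-bound enzymes had changes of -0.16 (SE 0.17) for Mmp15, 0.02 (SE 0.11) for Mmp17 and 0.27 (SE 0.13, adjusted p = 0.386) for Mmp24. Mmp24 was dim, and its other probe was on no array.

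The stromelysins Mmp3 and Mmp11 had higher means. Mmp11, or stromelysin-3, an enzyme of stromal cells, was at 0.12, 0.62, 0.51 and 0.69 with vehicle and at 0.52, 0.93, 0.95 and 1.06 with E7386. Replicate 1 was the lowest array of each group, and the other 3 E7386 arrays lay above every vehicle array. The change was 0.38 (SE 0.16, adjusted p = 0.315), and the other probe, well above background on all arrays, gave 0.49. Mmp3, or stromelysin-1, was at -1.30, -0.91, -1.58 and -2.16 with vehicle and at 0.28, -1.15, -1.49 and 0.08 with E7386. E7386 replicates 1 and 4 were the 2 highest arrays and the other two lay within the vehicle range, so that the largest upward change of the tested members, 0.92 (SE 0.45, 95% interval -0.11 to 1.95), had an adjusted p = 0.382.

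Mmp13, a collagenase of the same cluster, had the largest change downwards and the widest interval. It was at -3.87, -4.89, -3.73 and -3.99 with vehicle and at -4.50, -4.20, -6.75 and -5.72 with E7386. The last 2 arrays were the lowest of all 8 and were not well above background, while E7386 replicates 1 and 2 lay within the vehicle range. The change of -1.17 (SE 0.56, adjusted p = 0.372) was -0.12 with normexp. Mmp12, the elastase of macrophages, was well above background on 3 vehicle arrays and 1 E7386 array, with a change of -0.28 (SE 0.34). Mmp19 had 0.02 (SE 0.15) and Mmp23 -0.15 (SE 0.09).

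The TIMPs gave no call, and 4 of 4 were well above background on all arrays. Timp2, which inhibits MMPs and also takes part in the activation of Mmp2 by Mmp14, was at 7.37, 7.51, 7.46 and 7.36 with vehicle and at 7.57, 7.48, 7.57 and 7.48 with E7386. This is the narrowest interval of all tested members, 0.10 (SE 0.07, 95% interval -0.06 to 0.26), and the other probe gave 0.07. Timp3, the inhibitor bound to the matrix, had means of 6.75 ± 0.18 (SD, n = 4) and 6.88 ± 0.13, a change of 0.13 (95% interval -0.13 to 0.39). Timp4 was at 0.90, 1.09, 0.09 and 0.21 with vehicle and at 0.62, 0.73, 0.65 and 1.18 with E7386, a change of 0.22 (SE 0.25).

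Timp1, an inhibitor that is induced in many tissues by inflammation, differed in spread more than in mean. Its SD was 0.19 with vehicle and 0.51 with E7386, while that of Timp4 was 0.49 and 0.26, and spread was not tested. Timp1 was at 1.61, 1.61, 2.00 and 1.71 with vehicle and at 2.11, 1.66, 1.49 and 0.86 with E7386, so the E7386 arrays held both the highest and the lowest value. The change was -0.20 (SE 0.24, adjusted p = 0.757), and it was 0.02 without E7386 replicate 4. The same 2 arrays were at the ends of a list of neutrophil markers, of which 6 of 8 were tested and 5 were well above background on all arrays. The mean of these markers was 1.87 on E7386 replicate 1 and 0.29 on E7386 replicate 4, and 0.41 to 0.85 on the other 6 arrays. S100a8 and S100a9, which stressed keratinocytes also make, were at 4.54 and 5.44 on E7386 replicate 1, against at most 2.59 and 2.63 on the other arrays. The other tested markers did not share this height: on that array Csf3r was at 5.76 (5.75 to 5.78 on the other E7386 arrays), Elane at 0.91, and Camp at -1.71, below 5 of the other 7 arrays. Cxcr2, at -3.71, was at its highest there. On E7386 replicate 4 Cxcr2 was at its lowest, at -6.04, below that array's detection floor of -5.05. None of the other tested markers was at its lowest on E7386 replicate 4, so the low end of the mean rests on a value under the floor. Ly6g has no named probe, and Mpo and Mmp8 were not well above background. The part of these cells in the values of Timp1, Adamts1 or Mmp9 was not tested.

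**Figure D4:**
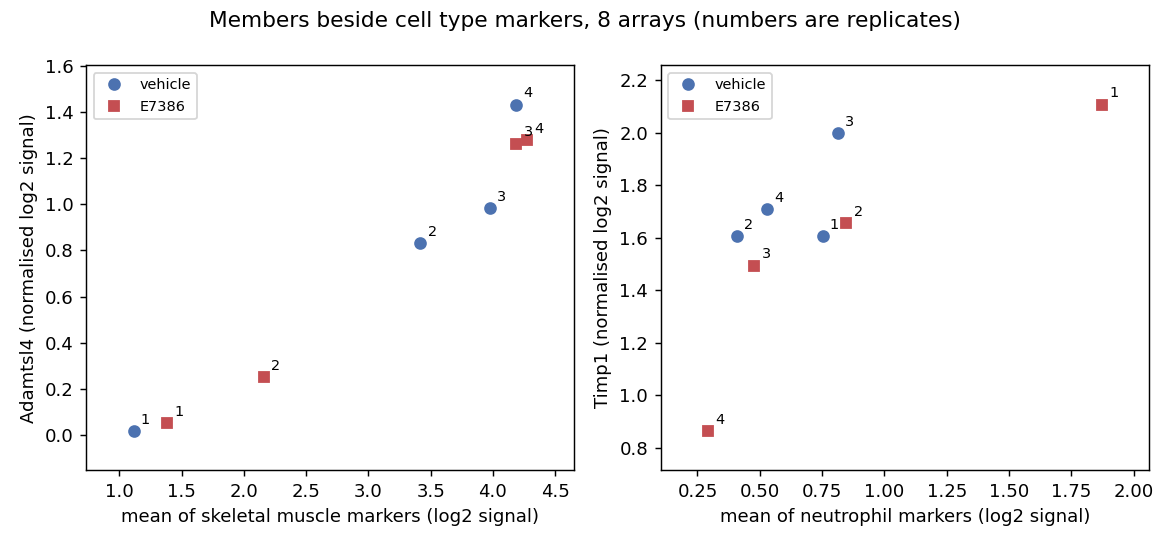
Left, normalised log2 signal of Adamtsl4 (y axis) against the mean log2 signal of 12 skeletal muscle markers (x axis), and right, Timp1 against the mean of 6 neutrophil markers, on 8 arrays, with vehicle as circles, E7386 as squares and replicate numbers beside them. The 3 arrays with the lowest muscle mean, 1.11 to 2.16, have the 3 lowest Adamtsl4 values, and E7386 replicates 1 and 4 have the highest and lowest Timp1.

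Across the 32 tested members, E7386 replicate 1 was the highest array of its group in 11 and E7386 replicate 4 the lowest in 14. Over all genes tested, these arrays were highest and lowest of their group in 31.9% and 27.4%. Of the vehicle arrays, replicate 3 was the highest in 12 members, against 20.3% of all genes, and replicate 4 the lowest in 12, against 26.9%. Within the E7386 group, Adamts1, Adamts2, Adamts4, Adamts9, Adamts14, Mmp2, Mmp19 and Timp1 were each highest on replicate 1 and lowest on replicate 4. Mmp11, Adamtsl2, Adamtsl4, Timp3 and Timp4 had their lowest E7386 value on replicate 1 and their highest on replicate 4.

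**Figure D5:**
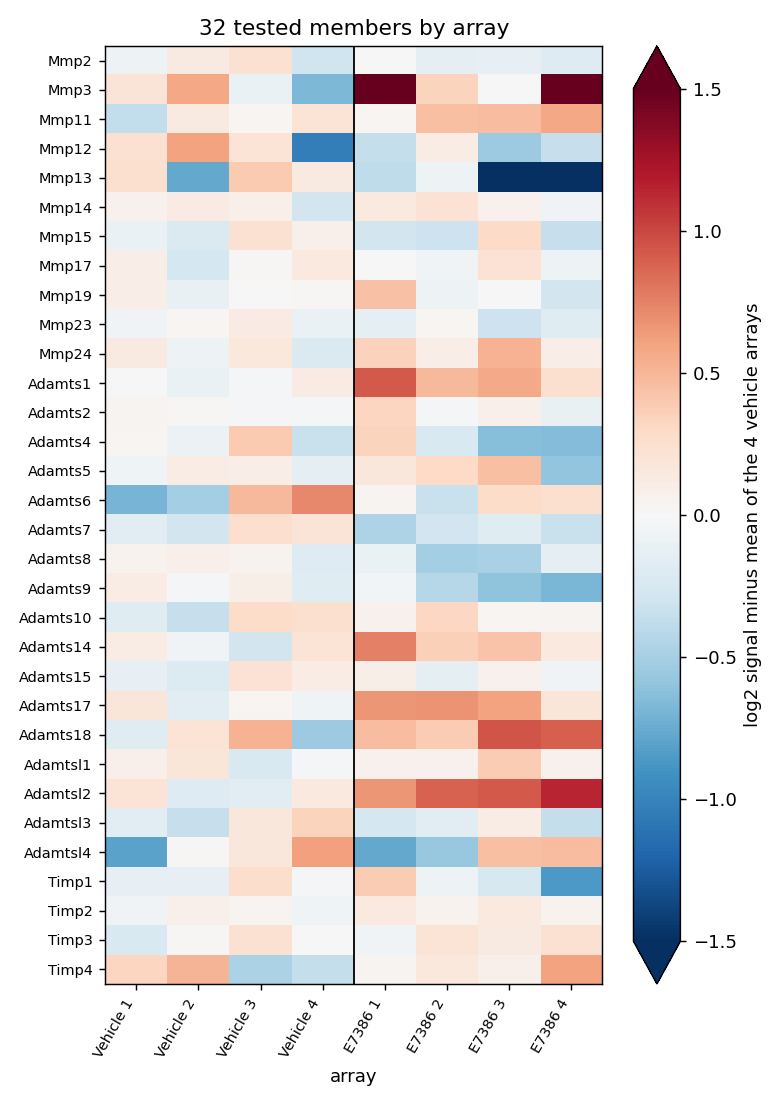
Normalised log2 signal of each of the 32 tested members (y axis) on each array (x axis) minus the mean of the 4 vehicle arrays, as a colour scale that ends at 1.5 in both directions. Adamtsl2, Adamts1 and Adamts17 are red on all 4 E7386 arrays. Other members whose groups overlap, among them Adamts14 and Adamts18, also lie above the vehicle mean on all 4. Mmp13 is blue beyond the scale on E7386 replicates 3 and 4.

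Other genes that act in the same proteolysis gave 1 call, in a substrate. Of 26 activators and inhibitors, such as furin and Reck, 22 were tested and 0 were called (limma). At an unadjusted p under 0.05, 2 of these were higher and 1 lower. Pcolce, which enhances the removal of the carboxy-terminal propeptide of procollagen, had a change of -0.25 (SE 0.08, adjusted p = 0.195). Of 20 other matrix proteases and sheddases, 17 were tested and 0 were called (limma), with 0 higher and 1 lower at an unadjusted p under 0.05. The sheddases Adam10 and Adam15 had -0.18 (SE 0.07, adjusted p = 0.281) and 0.18 (SE 0.08, adjusted p = 0.35).

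Of 23 substrates tested, 1 rose and 0 fell, with 2 higher and 3 lower at an unadjusted p under 0.05. Col4a1, a chain of the type IV collagen of basement membranes, rose by 0.60 (SE 0.08), with an adjusted p = 0.0183 from limma. Its vehicle arrays averaged 1.84 ± 0.06 (SD, n = 4) and its E7386 arrays 2.44 ± 0.12, without overlap. The call was lost with arrays scaled by their median (0.52, adjusted p = 0.0625). It was also lost without each of vehicle replicates 1, 2, 3 and 4 (adjusted p = 0.0547, 0.0552, 0.052 and 0.0516) and E7386 replicates 2 and 3 (0.0505 and 0.076), with changes from 0.57 to 0.62. Ncan, the proteoglycan neurocan, was dim and had -0.88 (SE 0.27, adjusted p = 0.179).

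The arrays show the labelled tissue. The tested markers of hair matrix and cortex (8 of 9), inner root sheath (8 of 8), basal and outer root sheath (6 of 6) and dermal fibroblasts (6 of 6) were well above background on all arrays. The mean of the tested markers overlapped between the groups in each of the 14 marker lists, with fibroblast means of 5.06 to 5.53 with vehicle and 5.13 to 5.33 with E7386. The 1 marker called, named after its values were seen, was Acta2, the smooth muscle actin, which is also made in the dermal sheath. It fell by 0.69 (SE 0.10), with an adjusted p = 0.023 from limma, from 3.22 to 3.45 on vehicle arrays to between 2.47 and 2.87 on E7386 arrays. The other 5 markers of its list of pericytes and smooth muscle gave no call and did not share a direction. Tagln, at 0.15 and with every E7386 array above every vehicle array, and Myh11, at 0.15, had higher means. Rgs5, Des and Notch3 had lower means, at -0.06, -0.13 and -0.06. The call of Acta2 was kept without vehicle replicate 4 and without E7386 replicate 1 and lost without each of the other 6 arrays (adjusted p from 0.0629 to 0.087). The part of Acta2 in the values of the members was not tested. The samples hold many cell types, and fewer cells of a type and less RNA per cell cannot be told apart here. All 8 arrays lie on 1 slide, with vehicle in row 1 and E7386 in row 2, so row and treatment cannot be told apart. The 75th percentile of the processed signal was 459.4 to 656.2, and detected spots made up 62.2% to 64.7% of the vehicle and 61.5% to 61.9% of the E7386 arrays.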

How the data were processed

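Total RNA of whisker follicles, 50 ng per sample, was labelled with Cy3 and hybridised to 1-colour Agilent arrays, per the labels' protocols. The scanner files deposited by the authors hold background-corrected intensities made with Feature Extraction 11.5.1.1, per the file headers (version 11 per the submitters' processing notes). The authors' deposited value table holds log2 values. All its columns hold 1 sorted set of values, with median 5.31, in the rank order of the processed signal (Spearman correlation 1). It was used as an alternative.

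Non-uniform spots were set to missing, spots of a probe averaged, log2 taken and each array's 75th percentile over mouse probes subtracted. Of 29150 probes with a RefSeq accession, 27509 were named through a GRCm38.p6 table. Probes without a symbol were counted as genes under their systematic names. Each gene was read on its brightest probe, and 25353 of 37018 genes were kept, of which 16133 have a symbol. E7386 was compared with vehicle in limma 3.58.1 (R 4.3.3, functions lmFit and eBayes) with Benjamini-Hochberg adjustment. The fit was run on simulated data with the spread of each gene and arrays drawn independently. It recovered 39.4%, 76.3% and 94% of log2 changes of 0.5, 1 and 2, and 5.74% of its calls were false. Changes of 0.5 are thus often missed, and links between arrays were not simulated.

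The members and lists were chosen with earlier results of these data known. Values were given for the TIMPs, called members, the 8 largest changes in each direction, the 8 brightest and those without overlap, and for the called genes and the 2 smallest p of each related list. One gene that this rule names among the activators and inhibitors is not reported here. Adamtsl4 and the remaining members given with a change, detected on few arrays or not, were singled out after their values were seen.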

Additional observations from a re-analysis of the deposited data

Results flagged for a closer look

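Of the 58 groups of 4 arrays behind the 29 genes given with values, 3 held an array far from the other 3, and chance gives about 1 in 20. Adamts17 was at -1.44 on E7386 replicate 4, against -1.02 to -0.95 on the other E7386 arrays. Vehicle replicate 4 was the lowest vehicle array of Adamts8, at -2.83 against -2.58 to -2.55, and of Mmp14, at 0.56 against 0.89 to 0.96.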

How the results depend on the processing

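The rise of 1 member became 0 without a filter on dim probes, with the replicate block and with the 3 low-muscle arrays left out (chosen after seeing the data), and 0 to 1 when 1 array was left out, while 0 members were called lower by limma in every alternative. The 191 rises and 93 falls of all genes became 112 and 41 without the filter, 326 and 280 with the muscle mean as a covariate, 50 and 9 with the replicate block, and 36 and 12 with the low-muscle arrays left out. Falls were 158 with trend and robust options and 141 with normexp on median signals, also chosen after seeing the data. Leaving out 1 array gave 67 to 158 rises and 21 to 82 falls. With the replicate block Adamtsl2 had an adjusted p of 0.103, Col4a1 of 0.0896 and Acta2 of 0.0609. Deviations from the group means correlated at 0.49, -0.17, 0.29 and 0.18 between samples numbered 1 to 4, so that 3 of 4 were above 0.1 and 1 was below 0. Vehicle replicates 1 and 3 correlated best with their own number and 2 and 4 with another. The labels give no shared source for a number, so the numbers were not taken as pairs. Of 605 values of 29 single genes under 21 alternatives, 576 kept direction and side of the threshold, 18 (Adamtsl2 and Col4a1) lost the call and 11 changed sign. Adamts2 was at -0.014 with median scaling, -0.0055 with the low-muscle arrays left out, and -0.022 to 0.12 with 1 array left out. Adamtsl3 was at 0.077 with normexp, and Mmp12 and Mmp24 were at 0.023 and -0.046 with probes averaged. With 1 array left out, Timp1 ran from -0.39 to 0.022 and Adamtsl4 from -0.37 to 0.11, and Adamtsl4 was at 0.19 with the low-muscle arrays left out, where Col4a1 had an adjusted p of 0.147. The cause was not tested. Normexp on mean signals was not run, since the scanner files have no column of mean signals. Signal over background limits Mmp13, Mmp12, Adamts6 and Adamtsl3.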

Other observations

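Of the 17 members that were not tested, Mmp16, Mmp20 and Mmp21 had every E7386 array above every vehicle array while being well above background on none, with mean differences of 0.39, 0.34 and 0.62. These are 3 of the 10 members on no array, and the same held for 36.8% of all 8437 genes on no array, so the count is near its background. The reverse, every E7386 array below every vehicle array, held for 0 of these 10 members and 0.533% of these genes. The part of this one-sided shift in the changes of dim members was not tested. The other probe of Mmp21 gave -0.16. Adamts5 and Adamts8 each have 2 probes well above background on all arrays, which gave 0.08 and 0.32 for Adamts5 and -0.31 and 0.05 for Adamts8. Mmp25, a membrane-bound enzyme of leukocytes, was well above background on 2 vehicle and 2 E7386 arrays.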
